A study of Mus musculus with 15 samples.

Results

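The genes described here were Zap70 and 8 other genes of the T cell receptor complex and its first signalling steps: Cd3d, Cd3e, Cd3g, Lck, Lat, Cd4, Cd8a and Cd8b1. They were 9 of 23284 gene symbols in a table of RNA-seq read counts from 15 mouse liver samples, and all 9 had a row. They were chosen by name, with their values in these libraries already known, to see whether Zap70 follows the other T cell genes. Their own levels and differences are therefore given as a description, and their calls are counted beside the share over all genes without being read as evidence.

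The study asked about Hmgb1, which binds chromatin inside the nucleus and warns of damage once released, in liver cancer. There were 6 tumours from mice with liver-specific deletion of Hmgb1, that is Hmgb1 floxed mice that also carried Albumin-Cre, 6 tumours from floxed control mice (Hmgb1 fl/fl) without Cre, and 3 normal livers from C57Bl/6 mice. Both tumour groups had received the carcinogen DEN (diethylnitrosamine, 25 mg/kg) at the age of 15 days and then, from week 8 on and for 15 weeks, a weekly dose of the liver toxin CCl4 (carbon tetrachloride, 0.5 µl/g), and no treatment is named for the normal livers. Albumin-Cre is active in the liver epithelium, not in T cells. The strain of the floxed and deleted mice and the age of the normal mice are not given in the labels, and there was no treated liver without a tumour. Whether some tumours shared a mouse is not in the labels, and p-values then cover the variation among these libraries alone, which may be technical.

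Total counts ran from 18973246 to 26293378 in Hmgb1-deleted tumours, from 20191452 to 30929442 in floxed tumours and from 23193714 to 26997782 in normal livers. Levels are given in CPM, counts scaled to a common library size with TMM factors over all 15 libraries. A count of 0 allowed a level of up to 0.110 to 0.169 CPM, depending on the library, and this limit covers counting error only. Hmgb1 itself averaged 14.8 ± 2.76 CPM in Hmgb1-deleted tumours and 27.9 ± 3.36 CPM in floxed tumours (SD, n = 6 each), with 23.9 ± 6.07 CPM in normal livers (n = 3). The deleted mean was 52.8% of the floxed mean, the groups did not overlap, and the log2 difference was -0.90 ± 0.14 (SE; adjusted p = 0.00509, edgeR quasi-likelihood test). Hepatocyte markers summed to between 99545 and 222276 CPM in Hmgb1-deleted tumours, between 163304 and 363715 CPM in floxed tumours and between 147967 and 173768 CPM in normal livers, so all 15 libraries carried the mRNA of liver tissue.

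The T cell receptor recognises peptides on major histocompatibility molecules but has no enzyme activity of its own, and signals through the CD3 chains bound to it. The kinase Lck, held near the receptor by the coreceptors CD4 or CD8, phosphorylates these chains. The kinase Zap70 then docks on them and phosphorylates the adaptor Lat, on which the later signalling complexes assemble. In liver, these genes are textbook markers of T cells, while Zap70 and Lck are also made by natural killer (NK) cells and Cd4 by some myeloid cells. In bulk tissue, fewer cells of a type and less RNA per cell cannot be told apart.

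The promoters of 3 members are shown because T cell genes are commonly described as sharing binding sites for the same factor families, and Zap70 parted from the rest in these libraries. RefSeq promoter windows (GRCm38.p6) were matched by symbol for 7 of the 9 members, in 10 windows, and Cd4 and Cd8b1 had none. The 250 bases before the annotated start are printed 5′ to 3′ on the gene's strand. Capitals mark matches on either strand to the letters of 6 motifs, each searched in all windows. They are TGACGTCA for CREB family factors (CRE), CAGGAAGT for ETS factors, AGATAA for factors of the GATA family, TGTGGT for RUNX factors, and for E-box proteins the letters CAGCTG and, as a further form, CACCTG.
Zap70, first start, chr1:36761548-36761797, plus strand: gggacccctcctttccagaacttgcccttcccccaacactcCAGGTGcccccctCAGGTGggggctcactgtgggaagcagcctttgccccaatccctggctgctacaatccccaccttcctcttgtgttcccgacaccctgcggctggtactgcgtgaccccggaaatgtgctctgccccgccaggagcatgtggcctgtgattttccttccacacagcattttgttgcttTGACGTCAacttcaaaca
Cd3e, chr9:45009612-45009861, minus strand: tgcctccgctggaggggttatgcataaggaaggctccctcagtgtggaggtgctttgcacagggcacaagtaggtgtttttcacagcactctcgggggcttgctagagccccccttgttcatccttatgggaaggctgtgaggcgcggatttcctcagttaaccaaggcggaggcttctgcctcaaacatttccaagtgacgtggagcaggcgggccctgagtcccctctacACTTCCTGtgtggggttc
Lck, the more downstream of its annotated starts, chr4:129558373-129558622, minus strand: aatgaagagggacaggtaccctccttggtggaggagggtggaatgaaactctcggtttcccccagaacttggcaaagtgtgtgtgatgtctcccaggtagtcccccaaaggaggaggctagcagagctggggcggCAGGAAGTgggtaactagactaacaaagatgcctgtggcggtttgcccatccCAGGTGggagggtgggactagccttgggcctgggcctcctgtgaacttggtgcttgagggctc
The first Zap70 window held the CRE letters 18 to 11 bases before its start, and it was the only one of the 10 member windows that did, while 1.55% of all 32851 windows held them. The ETS letters stood 18 to 11 bases before the start of Cd3e and in both Lck windows, so in 3 of 10 member windows against 2.69% of all windows. They were in none of the Zap70 windows, and the windows of Cd3d, Cd3g, Cd8a and Lat lacked them as well. The windows of Cd8a and Lat held no match to any of the 6 motifs. The CACCTG form of the E-box was in 5 of 10 member windows against 17.2% of all, and the CAGCTG form in 0 against 13%. The RUNX letters were in 2 of 10 against 14% and the GATA letters in 1 against 9.99%. No matches overlapped. The motifs were chosen after the sequences had been seen, a match is a run of letters and not a shown binding site, and counts per gene do not tell which start was used.

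Zap70, the kinase that carries the receptor signal from the CD3 chains to Lat, was at 0.366, 1.41, 0.956, 2.04, 1.57 and 1.19 CPM in Hmgb1-deleted tumours 1 to 6. In floxed tumours 1 to 6 it was at 40.5, 18.9, 23.0, 14.9, 5.37 and 17.3 CPM. In the normal livers it was at 6.01, 6.11 and 8.17 CPM. The 6 Hmgb1-deleted tumours were all lower than the floxed tumours and the normal livers, whereas floxed tumour 5 lay below the normal livers and the other 5 floxed tumours above them. Behind these levels stood 10 to 42 reads in Hmgb1-deleted tumours, 137 to 816 reads in floxed tumours and 148 to 166 reads in normal livers, so no library was at 0. Zap70 averaged 1.26 ± 0.571 CPM in Hmgb1-deleted tumours and 20.0 ± 11.7 CPM in floxed tumours (SD, n = 6 each), with 6.77 ± 1.22 CPM in normal livers (n = 3). The Hmgb1-deleted mean was 6.28% of the floxed mean and 18.6% of the normal mean, and the floxed mean was 2.96 times the normal mean. The log2 difference, Hmgb1-deleted over floxed, was -3.97 ± 0.475 (SE).

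The 3 CD3 chains, which carry the motifs that Zap70 docks on, overlapped between the tumour groups. Cd3d had its lowest, median and highest level at 0.478, 0.83 and 1.08 CPM in Hmgb1-deleted tumours and at 0.381, 0.689 and 2.68 CPM in floxed tumours, and it was at 0.447, 0.326 and 0.0492 CPM in normal livers. Cd3e was at 0.69, 1.1 and 2.01 CPM in Hmgb1-deleted tumours, at 0.381, 0.606 and 3.46 CPM in floxed tumours, and at 0.203, 0.285 and 0.394 CPM in normal livers. Cd3g was at 0.738, 1.57 and 2.82 CPM in Hmgb1-deleted tumours, at 0.435, 1.38 and 5.75 CPM in floxed tumours, and at 0.366, 0.367 and 0.345 CPM in normal livers. For all 3 chains the floxed range enclosed the Hmgb1-deleted range, and floxed tumour 4 was the highest library. The log2 differences, Hmgb1-deleted over floxed, were -0.41 ± 0.484 for Cd3d, 0.02 ± 0.54 for Cd3e and -0.28 ± 0.558 for Cd3g (SE).

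Lck, the kinase just before Zap70, and Lat, the adaptor just after it, overlapped between the tumour groups too. Lck had its lowest, median and highest level at 1.22, 2.15 and 3.53 CPM in Hmgb1-deleted tumours and at 0.636, 1.91 and 6.96 CPM in floxed tumours, and it was at 1.18, 1.06 and 0.689 CPM in normal livers. Lat was at 0.85, 1.56 and 2.6 CPM in Hmgb1-deleted tumours, at 0.756, 1.07 and 5.06 CPM in floxed tumours, and at 0.65, 0.285 and 0.394 CPM in normal livers. Again the floxed tumours spanned the whole Hmgb1-deleted range. The log2 differences, Hmgb1-deleted over floxed, were -0.22 ± 0.514 for Lck and -0.27 ± 0.502 for Lat.

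The coreceptors divided. Cd8a and Cd8b1 encode the chains of CD8, found on cytotoxic T cells. Cd8a had its lowest, median and highest level at 1.22, 2.42 and 3.06 CPM in Hmgb1-deleted tumours and at 0.994, 1.49 and 12.6 CPM in floxed tumours, and it was at 0.203, 0.407 and 0.148 CPM in normal livers. Cd8b1 was at 0.478, 1.17 and 1.46 CPM in Hmgb1-deleted tumours, at 0.477, 0.805 and 4.58 CPM in floxed tumours, and at 0.203, 0.163 and 0.148 CPM in normal livers. Both genes were above every normal liver in all 12 tumours. Cd4, the coreceptor of helper T cells, was at 0.779, 1.35 and 7.54 CPM in Hmgb1-deleted tumours, at 0.506, 1.76 and 3.37 CPM in floxed tumours, and at 2.72, 4.32 and 2.02 CPM in normal livers. In Cd4 the normal livers did not lie at the low end. Apart from Hmgb1-deleted tumours 2 and 5 and floxed tumour 4, every tumour was below all 3 normal livers. The highest library was Hmgb1-deleted tumour 5. The log2 differences, Hmgb1-deleted over floxed, were -0.61 ± 0.583 for Cd8a, -0.38 ± 0.541 for Cd8b1 and 0.56 ± 0.618 for Cd4.

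**Figure D1:**
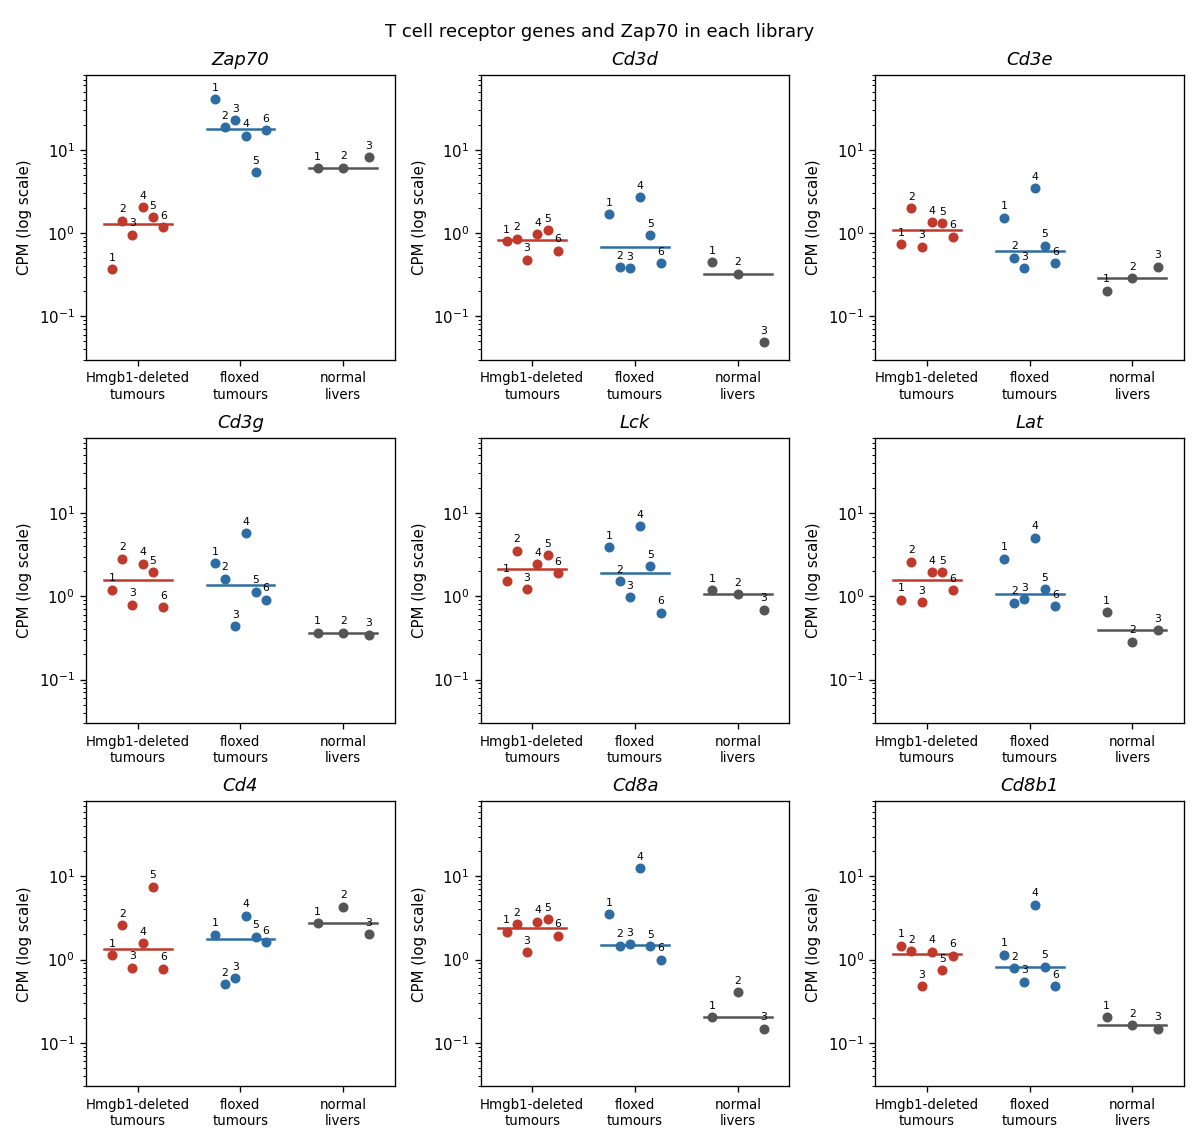
Level of each of the 9 members in each library, in CPM on a log axis, for Hmgb1-deleted tumours, floxed tumours and normal livers; points are libraries with their replicate number and lines are group medians. Zap70 separates the tumour groups (at most 2.04 CPM in Hmgb1-deleted tumours, at least 5.37 CPM in floxed tumours), and in the other 8 panels the tumour groups overlap.

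Between the tumour groups, 1 of the 9 members was called, Zap70, which was lower, at an edgeR adjusted p under 0.05 over 13433 genes. In the same fit 7.78% of all genes were called, 4.45% of all genes being higher and 3.33% lower, while 2.61% were higher and 2.32% lower with no overlap between the groups. Because Zap70 was picked for this pattern, its call adds nothing to its values. For the other 8 members edgeR called 0, with 0 at an unadjusted p under 0.05, and DESeq2 called 0. Their log2 differences, Hmgb1-deleted over floxed, ran from -0.61 to 0.56 with a median of -0.28, beside a median of 0.02 over all genes tested. Their standard errors were 0.484 to 0.618. Differences of 1 standard error, and larger ones up to some multiple of it, could not be told from 0 in either direction with 6 tumours a group. Their signs were not stable. Without floxed tumour 4, for example, the difference was 0.74 for Cd3e, 0.40 for Cd8a and 0.50 for Cd8b1, and none of them was called.

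Both tumour groups were also set against normal liver. The same 3 normal livers served in both comparisons, so the values stand side by side and are not independent of each other. Hmgb1-deleted over normal, the log2 differences were 1.53 ± 0.531 for Cd3d, 2.0 ± 0.467 for Cd3e, 2.22 ± 0.534 for Cd3g, 1.24 ± 0.402 for Lck, 1.84 ± 0.485 for Lat, 3.17 ± 0.45 for Cd8a and 2.60 ± 0.451 for Cd8b1. Floxed over normal, they were 1.95 ± 0.827 for Cd3d, 2.0 ± 0.813 for Cd3e, 2.51 ± 0.788 for Cd3g, 1.48 ± 0.715 for Lck, 2.12 ± 0.734 for Lat, 3.80 ± 1.03 for Cd8a and 3.00 ± 0.885 for Cd8b1. All 7 were thus on the higher side in both tumour groups, with wider errors in floxed tumours, where tumour 4 stood high. Their normal levels rested on few reads, from 1 for Cd3d in normal liver 3 to 29 for Lck in normal liver 1. Cd8a had 5, 10 and 3 reads in the normal livers and Cd8b1 had 5, 4 and 3. Cd4 was at -0.30 ± 0.719 in Hmgb1-deleted tumours and at -0.84 ± 0.53 in floxed tumours, both relative to normal liver. Zap70 was at -2.41 ± 0.397 in Hmgb1-deleted tumours and at 1.55 ± 0.485 in floxed tumours, both relative to normal liver, so it was the member that lay on opposite sides of normal liver in the 2 tumour groups.

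In Hmgb1-deleted tumours against normal liver, 7 of 9 members were called higher and Zap70 lower, where 34.7% of the 13784 genes tested were called, 18.1% higher and 16.6% lower. The same 7 were higher and Zap70 lower with no overlap, as 18.4% and 19.1% of all genes were. In floxed tumours against normal liver, 5 of 9 were called higher (Zap70, Cd3g, Lat, Cd8a and Cd8b1), where 48.7% of all genes were called, 24.9% higher and 23.8% lower. Of these, Cd3g, Lat, Cd8a and Cd8b1 did not overlap with normal liver, as 22.9% of all genes were higher and 23.4% lower without overlap. The members were chosen with these values known, so the counts are a description. The call of Zap70 in floxed tumours ended when any 1 of the normal livers was left out. Leaving out a normal liver also ended the floxed calls of Cd3g, Lat and Cd8b1, each with any 1 of the 3, and of Cd8a without normal liver 1, and Lat lost its call without floxed tumour 1 too. In Hmgb1-deleted tumours the calls of Cd3e and Cd3g ended without normal liver 1 or 2 and that of Lat without normal liver 2 or 3. Those of Lck and Cd3d ended without any 1 of the normal livers and without some single tumours.

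The gap between Zap70 and the mean of the other 8 members, on the log2(CPM + 0.5) scale, was -0.22 ± 0.46 in Hmgb1-deleted tumours (SD, n = 6; range -0.97 to 0.17), 3.19 ± 1.23 in floxed tumours (n = 6; range 1.48 to 4.32) and 2.82 ± 0.38 in normal livers (n = 3; range 2.60 to 3.25). The mean of the other 8, on the same scale, was 0.96 ± 0.43 in Hmgb1-deleted tumours, 0.95 ± 0.86 in floxed tumours and 0.03 ± 0.15 in normal livers. The mean of the other 8 thus differed between the tumour groups by less than its spread, so the gap restates the difference in Zap70 for which the gene was chosen. Whether Zap70 follows the other genes from tumour to tumour was read within each group.

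**Figure D2:**
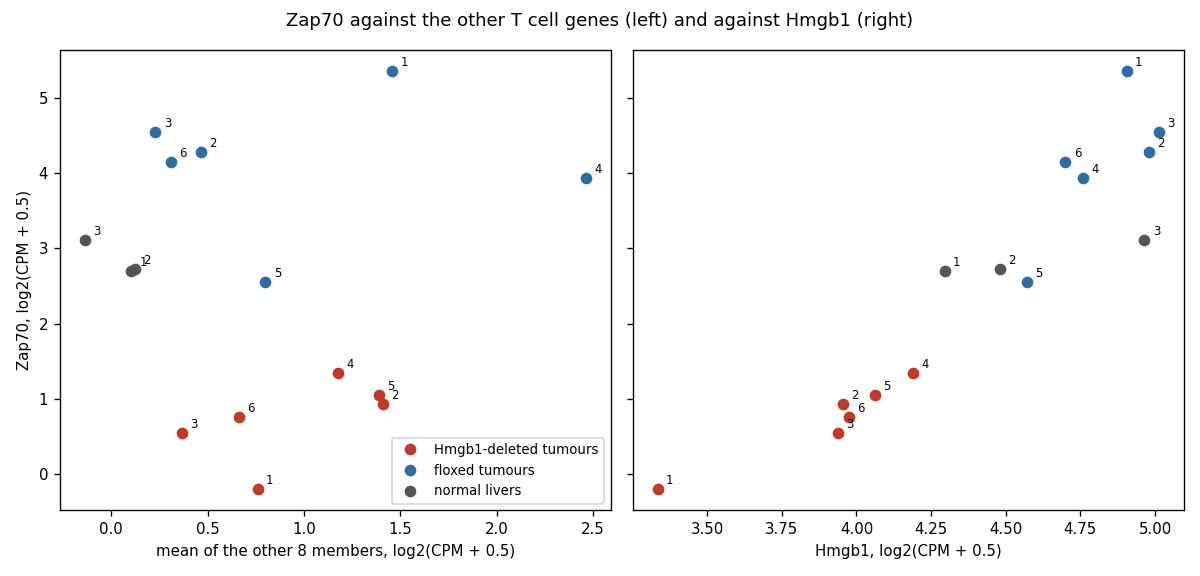
Zap70 in each of the 15 libraries, as log2(CPM + 0.5), against the mean of the other 8 members (left) and against Hmgb1 (right), with points marked by group. On the left, Hmgb1-deleted and floxed tumours cover the same stretch of the x axis (means 0.96 and 0.95) at separate heights. On the right, the Hmgb1-deleted tumours are lowest in both genes. Normal liver 3 has 30.7 CPM of Hmgb1 and 8.17 CPM of Zap70, where floxed tumour 1 has 29.5 and 40.5 CPM.

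Among floxed tumours, the other 8 members moved together from tumour to tumour. All 8 were highest in floxed tumour 4, and the lowest library was floxed tumour 6 for 4 of them, 3 for 3 of them and 2 for 1 of them. Some of these levels rested on few reads. In floxed tumours 2, 3 and 6, Cd3d had 7, 7 and 11 reads and Cd3e had 9, 7 and 11. Pearson r of log2(CPM + 0.5) over the 6 floxed tumours ran from 0.69 to 0.99 over their 28 pairs, with a median of 0.91. Zap70 was highest in floxed tumour 1 and lowest in floxed tumour 5, and its r with the single members ran from -0.20 to 0.17. With the mean of the 8, Zap70 had r = 0.05 and Spearman rho = -0.26 (n = 6, a description). Both values depended on single tumours: without floxed tumour 1 they were -0.19 and -0.80, and without floxed tumour 4 they were 0.26 and 0.10. Also without floxed tumour 4, r of Zap70 with the single members ran from -0.18 to 0.58 and rho from 0 to 0.90. The r of the other 8 among themselves then ran from 0.30 to 0.98 with a median of 0.86, so both ranges rested in part on that tumour. In floxed tumour 4 the mean of the 8 lay 1.51 above its group mean on the log2 scale, and Zap70 lay -0.20 from its own. In floxed tumour 5 Zap70 lay -1.59 from its group mean, and the 8 lay -0.15 from theirs. Floxed tumour 1 was the one in which both stood high, at 1.22 for Zap70 and 0.50 for the 8.

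Among Hmgb1-deleted tumours, r of Zap70 with the mean of the 8 was 0.57 and rho was 0.60 (n = 6), and with single members r ran from -0.15 to 0.74 with a median of 0.52. The other 8 had r from -0.09 to 0.99 among themselves, with a median of 0.76, and the low end came from Cd4, without which the lowest of the 21 remaining pairs was 0.29 and their median 0.81. The highest library was Hmgb1-deleted tumour 2 for 4 of the 8, 5 for 3 and 1 for 1, and the lowest was tumour 3 for 6 and tumour 6 for 2. Zap70 was highest in Hmgb1-deleted tumour 4 and lowest in tumour 1, where it rested on 10 reads. Without tumour 1, its r was 0.76 with the mean of the 8 and ran from 0.46 to 0.87 with single members. The r of the other 8 among themselves then ran from 0.02 to 0.98, with a median of 0.82. With all 6 tumours, the median rho of Zap70 with single members was 0.71, beside 0.77 among the other 8. All points of a correlation share their library's depth and scaling factor, 6 libraries are few, and whether the correlations of the tumour groups differ was not tested.

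**Figure D3:**
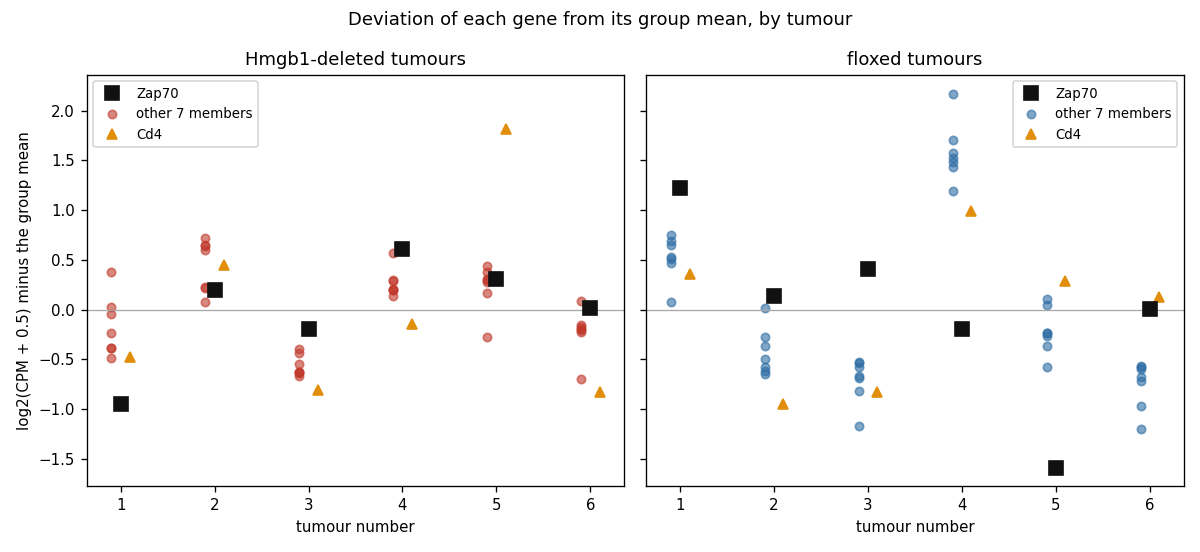
Deviation of each member from the mean of its own tumour group, as log2(CPM + 0.5), for the 6 Hmgb1-deleted and the 6 floxed tumours; squares are Zap70, triangles Cd4 and circles the other 7 members. In floxed tumour 4 the circles lie high and the square near 0 (-0.20), and in floxed tumour 5 the square lies at -1.59.

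In the orders over all 15 libraries and over the 12 tumours, the genes most like Zap70 were not T cell receptor genes. Over all 15 libraries, among 12689 genes with a mean of at least 1 CPM, to which the members were added at any level, the highest Spearman rho was that of Hmgb1 at 0.943 (Pearson r 0.933), followed by Cpm at 0.911, Rdh9 at 0.879, F11 at 0.871 and Ccbl1 at 0.868. Cpm encodes a carboxypeptidase, Rdh9 a retinol dehydrogenase family enzyme and F11 coagulation factor XI. Over the 12 tumours, among 12739 genes, Hmgb1 was again first at 0.965, followed by Sugp1 at 0.958, Lmtk3 at 0.930, the ribosomal protein gene Rpl19 at 0.930 and the channel gene Panx1 at 0.923. The other 8 members stood between places 6295 (Cd3g) and 9500 (Cd8b1) of the order over 15 libraries, with rho from -0.007 to -0.236. They stood between places 5099 (Cd3g) and 8657 (Cd8b1) of the order over the tumours. A gene that differs between the tumour groups without overlap scores high in these orders whatever its pattern within a group, and all genes share each library's scaling factor. The other 8 members overlapped between the tumour groups, so their places in these orders restate the difference for which Zap70 was chosen. They do not tell whether Zap70 follows these genes. Within Hmgb1-deleted tumours, rho was 0.771 for Cd3e, Cd8a and Cd3d and 0.714 for Lat and Lck. Cd3g and Cd4 were at 0.60 there and Cd8b1 at -0.143, while Rdh9, Ccbl1 and F11 were at -0.143, -0.257 and -0.371. Within floxed tumours, the other 8 members ran from -0.314 (Cd3d) to 0.314 (Cd8a). Rdh9, Ccbl1 and F11 were at 0.771, 0.60 and 0.429 in that group. Cpm, Lmtk3 and Rpl19 were at 0.886 there, above Hmgb1 at 0.771, and Panx1 was at 0.714. Within Hmgb1-deleted tumours, Rpl19 was at 0.771 and Panx1 at 0.657, below Hmgb1 at 0.943. Sugp1 lay between Rpl19 and Hmgb1 in both tumour groups. Cpm and Lmtk3 averaged under 1 CPM in Hmgb1-deleted tumours and were not ranked there.

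Within the groups, Zap70 and Hmgb1 had rho = 0.943 and r = 0.964 over the 6 Hmgb1-deleted tumours (place 18 of 12636 genes) and rho = 0.771 and r = 0.767 over the 6 floxed tumours (place 1076 of 12712). With library totals and no scaling factor, the value in Hmgb1-deleted tumours was 0.943, but that in floxed tumours was -0.029, and Hmgb1 stood in 5th place over the 15 libraries (rho 0.843) and in 15th over the tumours (rho 0.853). The place of Hmgb1 at the head of the order thus rested on the scaling, and the likeness within floxed tumours was seen only with a scaling factor (0.771 with TMM and with RLE). Over the tumours without a factor, Lmtk3 was first at rho 0.902 and Panx1 was at 0.818 (place 31). Sugp1 fell to 0.385 (place 1064) and Rpl19 to 0.441 (place 855), so their places rested on the scaling too. Over the 15 libraries without a factor, Cpm, Rdh9, F11 and Ccbl1 took places 1 to 4. Within floxed tumours without a factor, Lmtk3 was at 0.771, Cpm at 0.714, Panx1 at 0.371, Rpl19 at 0.257 and Sugp1 at -0.143. Within Hmgb1-deleted tumours without a factor, Panx1 was at 0.657, Rpl19 at 0.429 and Sugp1 at 0.371.

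The nearest genes on each side of Zap70 on chromosome 1 that had a row among the read counts were read to see whether they shared its pattern. Their order was taken from RefSeq (GRCm38.p6), and genes without a row were skipped. In that order 4933424G06Rik came directly before Zap70 and Actr1b 3 genes before it, while Tmem131 came 2 genes and Cnga3 8 genes after it. Actr1b, an actin-related gene before it, averaged 51.9 CPM in Hmgb1-deleted tumours, 53.9 CPM in floxed tumours and 69.3 CPM in normal livers. Tmem131, a membrane protein gene after it, averaged 27.5 CPM in Hmgb1-deleted tumours, 29.7 CPM in floxed tumours and 55.5 CPM in normal livers. Hmgb1-deleted over floxed, the log2 difference was -0.03 ± 0.10 for Actr1b (adjusted p = 0.885) and -0.09 ± 0.14 for Tmem131 (adjusted p = 0.765, edgeR), so neither passed the test. Of the other neighbours, 4933424G06Rik did not exceed 0.0544 CPM in any library, and Cnga3, an ion channel subunit gene, had 0 counts in every library.

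Other genes of the receptor pathway, 37 of 40 listed, were read in the same fits, and Trac, Trbc1 and Trbc2, the constant regions of the receptor chains, were not analysed here. Between Hmgb1-deleted and floxed tumours, 30 were tested, 1 was called higher and 1 lower, with a median log2 difference of -0.04. These 2 of 30 were 6.67% of the list, close to the 7.78% of all genes called in this fit. Themis, which acts in thymocyte selection, was higher, at 1.33 ± 0.739 CPM in Hmgb1-deleted tumours and 0.408 ± 0.326 CPM in floxed tumours (log2 difference 1.70 ± 0.48, adjusted p = 0.0493, edgeR). Dgkz, a diacylglycerol kinase that dampens receptor signalling, was lower, at 74.6 ± 11.2 CPM in Hmgb1-deleted tumours and 119 ± 37.1 CPM in floxed tumours, with no overlap (-0.65 ± 0.19, adjusted p = 0.0489). Both calls lay at the threshold: Themis was called in 8 of 21 alternative settings and Dgkz in 7 of 22, and each call ended when any of 10 single libraries was left out.

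The nearest partners of Zap70 did not pass the test between the tumour groups. Cd247, the zeta chain on which Zap70 docks, had a log2 difference, Hmgb1-deleted over floxed, of 0.05 ± 0.50 (adjusted p = 0.968, edgeR). Syk, the kinase most closely related to Zap70 and mainly used by B and myeloid cells, had -0.23 ± 0.28 (adjusted p = 0.671). The Src family kinase Fyn had -0.36 ± 0.23, the adaptor Lcp2 (SLP-76) -0.13 ± 0.30 and the phosphatase Ptprc (CD45) 0.11 ± 0.26. The surface receptors Cd2, Cd5, Cd6 and Cd28 had -0.17 ± 0.49, 0.16 ± 0.60, -0.36 ± 0.61 and -0.49 ± 0.40. All of these adjusted p-values were 0.36 or above.

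**Figure D4:**
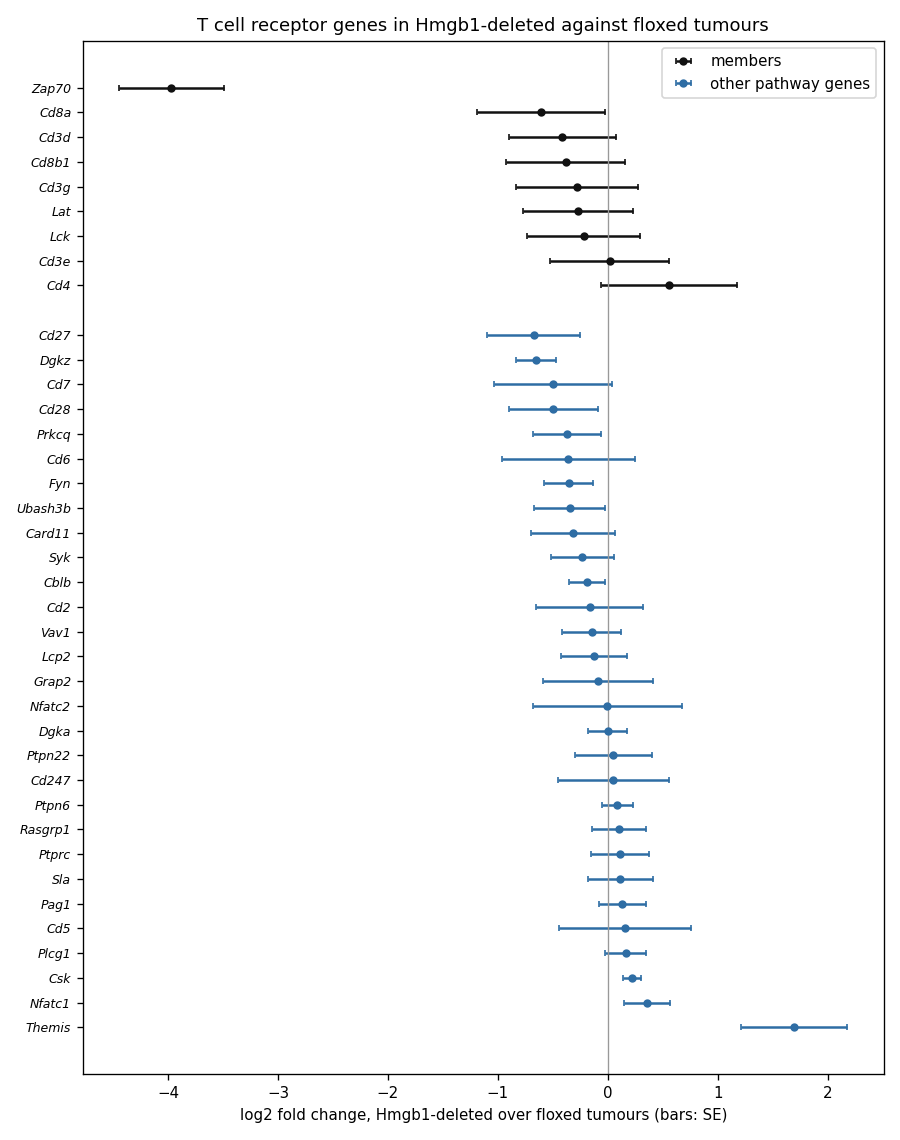
Log2 fold change, Hmgb1-deleted over floxed tumours, with its standard error, for the members and most of the tested genes of the pathway list. Zap70 lies at -3.97, and the other 8 members lie between -0.61 and 0.56.

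Against normal liver, more genes of the list were higher than lower in both tumour groups. In Hmgb1-deleted tumours 16 of 33 tested genes were higher and 2 lower, 54.5% of the list against 34.7% of all genes called, with a median log2 difference of 1.06 beside 0.05 over all genes. Among them Themis rose by 2.89 ± 0.55 (adjusted p = 0.0052), Cd247 by 2.03 ± 0.52 (adjusted p = 0.0158), Ptprc by 1.81 ± 0.31 (adjusted p = 0.00392) and Syk by 1.18 ± 0.24 (adjusted p = 0.00649, edgeR). In floxed tumours 12 of 29 tested genes were higher and 3 lower, 51.7% of the list against 48.7% of all genes called, so the share was near that of all genes. The median was 1.23 beside 0.06 over all genes. There Nfatc2, a transcription factor activated by the receptor, rose by 2.75 ± 0.63 (adjusted p = 0.00509), Cd247 by 1.99 ± 0.74 (adjusted p = 0.0466), Ptprc by 1.71 ± 0.28 (adjusted p = 0.00079) and Syk by 1.43 ± 0.37 (adjusted p = 0.00989). Plcg1, the phospholipase that Lat recruits, was lower than in normal liver, with log2 differences of -0.94 ± 0.15 in Hmgb1-deleted tumours (adjusted p = 0.00297) and -1.09 ± 0.25 in floxed tumours (adjusted p = 0.00446). Pag1, a membrane anchor of the inhibitory kinase Csk, was lower too, at -0.73 ± 0.16 in Hmgb1-deleted tumours (adjusted p = 0.00952) and -0.85 ± 0.25 in floxed tumours (adjusted p = 0.0165). Csk was lower in floxed tumours (-0.48 ± 0.10, adjusted p = 0.00304) and had -0.27 ± 0.09 in Hmgb1-deleted tumours (adjusted p = 0.0513). The adaptors Sla and Lcp2 and the exchange factor Vav1 were called higher in both groups. Their log2 differences over normal liver were 1.60, 1.09 and 1.27 in Hmgb1-deleted tumours and 1.49, 1.23 and 1.42 in floxed tumours. The surface receptor gene Cd7 was higher in Hmgb1-deleted tumours (1.55 ± 0.32, adjusted p = 0.00702) and had 2.07 ± 0.85 in floxed tumours (adjusted p = 0.0645). The calls of Sla, Vav1, Lcp2 and Pag1 in Hmgb1-deleted tumours ended without 3, 2, 1 and 1 of the single libraries left out, and those of Lcp2 and Pag1 in floxed tumours without 4 and 2. Several of these genes are also expressed outside T cells. The count in floxed tumours was 9 in all without normal liver 1 or 2 and 10 without normal liver 3, against 15 with all libraries. The count in Hmgb1-deleted tumours was 11, 8 and 9 without normal liver 1, 2 and 3, against 18. The call of Cd247 ended without normal liver 2 or 3 in Hmgb1-deleted tumours (log2 differences 1.95 and 1.81), and in floxed tumours without any 1 of the normal livers, floxed tumour 1 or floxed tumour 4 (1.95 and 1.38 without these tumours).

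Markers of the cells that also express some of the members were set beside them. The 15 cytotoxic and NK cell markers summed to a lowest, median and highest of 10.04, 14.8 and 20.7 CPM in Hmgb1-deleted tumours, 6.64, 13.9 and 50.9 CPM in floxed tumours, and 5.22, 5.42 and 6.42 CPM in normal livers. The highest sum was in floxed tumour 4, the library in which the 8 members were also highest and Zap70 was not. edgeR's test called 0 of the 7 tested markers of this list between the tumour groups, with 1 at an unadjusted p under 0.05 (14.3%, against 24.3% of all genes tested), Gzma (granzyme A), at a log2 difference of -0.96 ± 0.43 (adjusted p = 0.189). The NK receptor gene Ncr1 was at or under 0.54 CPM in every library, but it is only 1 of the 15 markers and was picked after its values were seen. Nkg7, of the same list, was at 6.75 CPM in floxed tumour 4. The amount of NK cells was therefore not read from Ncr1. In the list of 20 T cell lineage and homing genes, 0 of 15 tested were called, with 1 at an unadjusted p under 0.05 (6.67%), and the median was 0.00. That gene was Tcf7, a T cell transcription factor, at -0.71 ± 0.30 (adjusted p = 0.168). Of the 10 T cell checkpoint genes, 6 were tested between the tumour groups, edgeR called 0, and 0 had an unadjusted p under 0.05. Against normal liver 3 of 8 were higher in Hmgb1-deleted tumours (37.5%, against 34.7% of all genes called) and 2 of 6 in floxed tumours (33.3%, against 48.7%). Havcr2, which encodes the inhibitory receptor TIM-3, was higher in both, on the log2 scale by 3.23 ± 0.54 in Hmgb1-deleted tumours (adjusted p = 0.00348) and by 2.68 ± 0.49 in floxed tumours (adjusted p = 0.00135).

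The 15 B and plasma cell markers summed to 21.0, 41.4 and 57.8 CPM in Hmgb1-deleted tumours (lowest, median and highest), 46.1, 64.7 and 112 CPM in floxed tumours, and 24.9, 33.3 and 44.0 CPM in normal livers. All 13 tested had a negative log2 difference, Hmgb1-deleted over floxed, with a median of -0.51, but edgeR called 0, with 3 at an unadjusted p under 0.05 (23.1%, near the 24.3% of all genes). The nearest to the threshold were 2010001M09Rik at -1.20 ± 0.34 (adjusted p = 0.0505) and Blnk, an adaptor of the B cell receptor, at -1.26 ± 0.39 (adjusted p = 0.0674). Myeloid and dendritic markers summed to medians of 482 CPM in Hmgb1-deleted tumours, 472 CPM in floxed tumours and 319 CPM in normal livers. The part of NK, B or myeloid cells in the levels of Zap70 was not tested. Hepatocyte markers summed to medians of 162814 CPM in Hmgb1-deleted tumours, 291515 CPM in floxed tumours and 163955 CPM in normal livers. The ranges of the tumour groups overlapped, and edgeR called 0 of the 10 markers between them, with 3 at an unadjusted p under 0.05.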

How the data were processed

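Poly-A RNA of 12 tumours and 3 normal livers was sequenced from TruSeq libraries, as the labels' protocols say. The authors deposited whole-number read counts for each gene symbol, with no normalization. The submitters' processing notes name bcl2fastq 1.8.4, Bowtie2 2.2.4, TopHat2 2.1.0 and HTSeq 0.6.1, and the build mm9. Settings, annotation and strand use were not given in the sources used here, so reads of a gene and an antisense partner cannot be told apart. The reference tables were GRCm38.p6, another build, and served for names, gene order and promoters.

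The members and gene lists were chosen with earlier results of these data known. In R 4.3.3, edgeR 4.0.16 (filterByExpr, TMM, robust quasi-likelihood F test) was fitted to the 2 groups of each comparison, with Benjamini-Hochberg adjustment over all genes and a threshold of 0.05. The pseudocount was 0.5 CPM. Mean ± SD is over libraries. The fit was tested on simulated data. Alternatives were DESeq2 1.42.0, RLE factors, no factor, no filter, a filter of 1 CPM, 1 fit of all 15 samples, a replicate block and libraries left out. No factor and the removal of several libraries at once were chosen after seeing the data. Genes named are the members, Hmgb1, receptor pathway genes by role or with the smallest p, up to 4 genes of each other list by p, the neighbours of Zap70 and the 5 genes most like it, except 1 pathway gene that is counted with its list and not reported here by itself. Ncr1 and the motifs were chosen after their values were seen.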

Additional observations from a re-analysis of the deposited data

Results flagged for a closer look

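In 18 groups of 6 tumours tested (9 members, each tumour group), 1 library stood apart from the rest of its group 3 times. The measure was the gap to the next library over the range of the group, in CPM and not on the log2 scale. Chance alone picks out about 1 in 20 such groups only if the levels are independent and normally distributed. This was not tested, and Cd8a and Cd8b1 were picked out in the same library. The results are therefore given as a description and are not weighed against that rate. Cd4 was at 7.54 CPM in Hmgb1-deleted tumour 5, where the next highest tumour of the group was at 2.60 CPM. Of the 15 myeloid and dendritic cell markers, 4 were highest and 3 lowest of the group in that library. Their sum was 546 CPM there, the highest of a range that began at 351 CPM, and their part in the Cd4 level was not tested.

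Cd8a was at 12.6 CPM in floxed tumour 4, with the next highest at 3.53 CPM, and Cd8b1 was at 4.58 CPM in the same library, with the next highest at 1.14 CPM. The cytotoxic and NK cell markers were also highest there, at a sum of 50.9 CPM, and their part in the CD8 levels was not tested.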

How the results depend on the processing

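Over all alternatives tried, Zap70 kept its direction: its log2 difference lay between -4.18 and -3.65 for Hmgb1-deleted over floxed tumours, between -2.95 and -2.11 for Hmgb1-deleted tumours over normal liver and between 1.24 and 1.96 for floxed tumours over normal liver. No called result reversed, while the signs of the other 8 members between the tumour groups, where none was called under any alternative, varied with the libraries left out. Where values moved, the cause was not tested. Genes called between the tumour groups numbered 1045, but 2063 with DESeq2, 1629 in 1 fit of all samples, 539 without floxed tumours 1 and 4, and 589 to 1054 with 1 library left out (589 without Hmgb1-deleted tumour 4). The 2 calls in the pathway list became 1 with RLE, with a filter of 1 CPM, without a factor, without Hmgb1-deleted tumours 2 and 5 and without floxed tumours 1 and 4. They became 0 without a filter and without Hmgb1-deleted tumours 3, 4 and 6, 3 with DESeq2, and 0 to 2 with 1 library left out. Between Hmgb1-deleted tumours and normal liver, 4787 called genes became 3055 with the replicate block and 2113 to 4912 with 1 library left out, and the list's 18 calls became 10 with the block and 8 to 20. For floxed tumours against normal liver, the list's 15 calls became 10 without a factor and 9 to 19 with 1 library left out, where 6714 genes became 4860 to 6966.

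In Hmgb1-deleted tumours, r of Zap70 with the mean of the other 8 was 0.687, rho 0.657 and the median r of the others 0.861 without a factor. With 1 library left out these were 0.516 to 0.756, 0.50 to 0.60 and 0.712 to 0.837. In floxed tumours they were -0.190 to 0.265, -0.80 to 0.10 and 0.858 to 0.941. Replicate numbers do not pair the samples: deviations of same-numbered tumours correlated between -0.26 and 0.22. With the block, 860 genes were called between the tumour groups.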
